A study of Homo sapiens with 8 samples.

Results

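The genes described here make the MHC class I molecule and load it with peptide. They were taken by symbol from a table of raw read counts: the heavy chains HLA-B, HLA-C, HLA-E and HLA-F, the light chain B2M, the peptide transporter subunits TAP1 and TAP2, the loading chaperone TAPBP (tapasin) and the transactivator NLRC5. Of these 9 genes, 8 matched a row among 23562, and no row carried the symbol TAP2, which therefore has no counts here. Of the 8, 7 passed the filter on low counts, which HLA-F did not.

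The libraries were made from OCI-AML5 cells, a human line established from an acute myeloid leukemia. Cells were transduced with lentiCRISPRv2, a lentiviral vector for Cas9 and a guide RNA. The vector carried 1 of 4 non-specific guides (sgControl 1 to 4) or 1 of 4 guides against CEBPD (sgCEBPD 1 to 4), so each of the 8 libraries of polyadenylated RNA had its own guide. CEBPD encodes the transcription factor C/EBP delta, and the comparison asks how transcripts differ when its guides replace control guides. No label says whether cultures were repeated for a guide or whether edited cells were cloned, so p-values measure the spread between libraries with different guides, part of which may be technical.

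Library totals lay between 10217751 and 11521209 counts. Levels are CPM (counts scaled to library size) after TMM scaling, a method that adjusts library sizes for composition. CEBPD stood at 202 to 216 CPM in the controls and at 107, 209, 195 and 164 CPM in sgCEBPD 1 to 4, which measures neither the edit nor the protein. The library sgCEBPD 3 stood apart: 16.5% of 13838 tested genes were at least 1.5-fold above the control mean and above all 7 other libraries there, and 16.6% were as far below. Each comparison is therefore given with all 8 libraries and with 7, without sgCEBPD 3.

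Class I molecules carry peptides from proteins made inside the cell to its surface, where CD8 T cells and natural killer cells read them. The heavy chain folds with B2M in the endoplasmic reticulum, TAP1 and TAP2 pump in peptides cut by the proteasome, and TAPBP holds the empty molecule beside the transporter until a peptide fits. NLRC5 acts at class I gene promoters through the SXY module, a set of boxes that includes a cyclic AMP response element-like box and an inverted CCAAT box, and interferon raises many of these genes.

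The stretches before the starts of HLA-B, HLA-C and B2M are shown because they hold the boxes of that module, and because HLA-B and B2M turned out to be the high members in sgCEBPD 3 while HLA-C varied between controls. They run 5′ to 3′ from 250 to 31 bases before the start in RefSeq's GRCh38.p14 and lie at chr6:31357210-31357429 (minus strand, HLA-B), chr6:31272123-31272342 (minus strand, HLA-C) and chr15:44711267-44711486 (plus strand, B2M). This is reference sequence, and the alleles of OCI-AML5 may differ from it. Capitals mark matches, on either strand, to TGACG (the cyclic AMP response element core), CCAAT (read as ATTGG when inverted) and an interferon-stimulated response element (GAAA, any 2 bases, GAAA).
HLA-B: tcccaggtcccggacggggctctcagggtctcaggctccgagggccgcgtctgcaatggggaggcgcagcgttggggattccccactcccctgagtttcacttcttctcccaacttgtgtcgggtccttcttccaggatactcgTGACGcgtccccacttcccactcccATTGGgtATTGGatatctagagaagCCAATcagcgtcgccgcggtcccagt
HLA-C: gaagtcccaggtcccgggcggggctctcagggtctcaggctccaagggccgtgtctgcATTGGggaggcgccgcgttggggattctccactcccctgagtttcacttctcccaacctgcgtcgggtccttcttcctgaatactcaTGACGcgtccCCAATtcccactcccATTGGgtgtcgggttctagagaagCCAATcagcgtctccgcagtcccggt
B2M: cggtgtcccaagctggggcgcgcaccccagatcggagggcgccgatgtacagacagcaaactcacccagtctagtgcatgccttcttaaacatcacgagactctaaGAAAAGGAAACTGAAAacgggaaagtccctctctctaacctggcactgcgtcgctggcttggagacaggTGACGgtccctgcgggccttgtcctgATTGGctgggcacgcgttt

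In all 3 stretches TGACG came before an inverted CCAAT box. The first bases of these 2 matches were 25 bases apart in HLA-B and in HLA-C and 26 bases apart in B2M. RefSeq's promoter table held 7 of the 9 genes, all but HLA-E and NLRC5. Within 250 bases before the start, the interferon-stimulated response element was found in 5 of the 7 genes (HLA-F, TAP1, TAP2, TAPBP and B2M), against 3.02% of 35116 promoters. In TAP1, TAPBP and B2M, 2 such matches overlapped each other. CCAAT was found in 5 (HLA-B, HLA-C, HLA-F, TAP1 and B2M) against 32.0%, and TGACG in 4 (HLA-B, HLA-C, TAP2 and B2M) against 21.2%. A C/EBP-like motif, TTGCNNAA, was in none of the 7, against 9.05% of promoters. The counts of members are genes with a match in any of their listed promoters, while the percentages are shares of single promoters. The 2 measures are therefore not strictly alike. For every motif here, a missing match says only that these exact letters are not in this window.

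Of the 9 genes, 7 lie on chromosome 6, within the major histocompatibility complex, between 29722775 (the start of HLA-F) and 33314387 (the end of TAPBP) in GENCODE release 29 on GRCh38. B2M lies on chromosome 15 from 44711487 to 44718877 and NLRC5 on chromosome 16 from 56989485 to 57083531. HLA-B is annotated from 31269491 to 31357188 and HLA-C from 31268749 to 31272130, so their annotated extents overlap. TAP1 is annotated from 32845209 to 32853978.

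Counts tended to be low, though unevenly, in the chromosome 6 interval that holds the class I genes. Of its 149 protein-coding genes, 77 (51.7%) matched a row, against 65.4% on the rest of chromosome 6 and 70.6% on other chromosomes. Those that matched had a median of 3.95 CPM in the controls, against 22.5 and 25.4 CPM, with 29 of the 77 under 1 CPM (115 of 585 on the rest of the chromosome) and 14 above 22.5 CPM. TUBB, a beta tubulin that dividing cells use, had 0 to 4 counts per library, and DDX39B, an RNA helicase of messenger RNA export, had 0 to 6. RPS18, a protein of the small ribosomal subunit, stood at 20.01 CPM, against a median of 498 CPM over 75 other genes named RPS or RPL outside the interval, of which 7 were lower. Other genes of the interval stood above the median of the rest of the chromosome, such as BRD2, a chromatin reader, at 112 CPM, BAG6, a chaperone of misplaced proteins, at 102.6 CPM and ABCF1 at 53.9 CPM. All 6 were chosen once their values were known. Some genes that growing cells use were thus nearly empty there, and others were not. The build hg38 carries alternate haplotype sequences for this interval, on which reads can find a second match; whether the authors aligned to them, and how reads with several matches were counted, is not given in the sources used here, and their part in the low counts was not tested. For HLA-B, HLA-C, HLA-E, HLA-F and TAP1, a low transcript level and a loss of reads in counting cannot be told apart here.

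**Figure D1:**
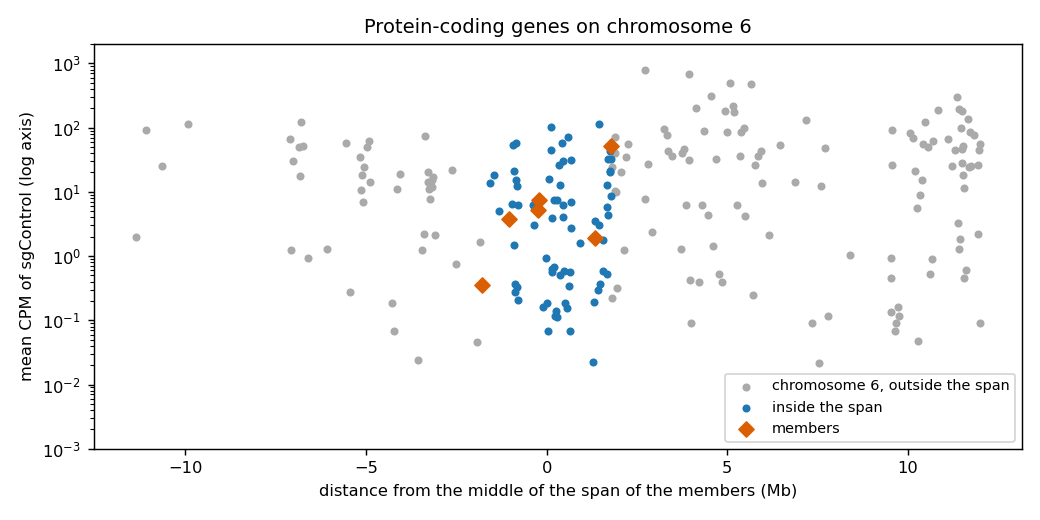
Mean CPM of the 4 sgControl libraries (log axis) for protein-coding genes of chromosome 6 against their distance in Mb from the middle of the interval that the members span; diamonds are members, and genes listed at 0 in the controls are left out. Genes inside the interval lie lower in the median (3.95 CPM over all that matched a row) than the rest of the chromosome (22.5 CPM), with 14 of 77 above the latter, and TAPBP, near the right edge, is the highest member.

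Per kilobase of annotated exon, the levels in the controls ran from B2M at 28.7 ± 2.53 CPM per kilobase (SD, n = 4) through TAPBP at 10.3 ± 0.58, NLRC5 at 2.69 ± 0.121, HLA-B at 2.40 ± 0.243, HLA-C at 2.06 ± 1.44, HLA-E at 1.26 ± 0.782 and TAP1 at 0.398 ± 0.0831 to HLA-F at 0.083. B2M and TAPBP stood clear of their neighbours. NLRC5, HLA-B and HLA-C overlapped in range, as did HLA-C with HLA-E, and HLA-E with TAP1. The order was the same per kilobase of the longest coding transcript, where B2M had 102 and HLA-B 4.74 CPM per kilobase. For the genes of the interval, the places in this order are those of the counts.

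HLA-C and HLA-E, a classical and a non-classical heavy chain, had the widest spread between control guides of the tested members. HLA-C had 115, 40, 16 and 57 counts in sgControl 1 to 4, a coefficient of variation of 70.3% in CPM where counting alone gives 13.2%, or 5.31 times counting error. HLA-E had 11, 49, 70 and 32 counts, with 62.0% against 15.7%, or 3.95 times. B2M exceeded counting error by nearly as much, 3.85 times, but on a spread of 8.82% against 2.29%. The control highest in HLA-C, sgControl 1, was lowest in HLA-E, and the control lowest in HLA-C, sgControl 3, was highest in HLA-E. By contrast HLA-B (10.1% against 11.2%), TAP1 (20.9% against 21.8%) and NLRC5 (4.50% against 5.24%) varied no more than counting allows, and TAPBP little more (5.65% against 4.20%). For tested genes between 5 and 100 CPM, edgeR's median coefficient of variation between libraries was 22.2% inside the interval (33 genes) and 15.2% on other chromosomes. It was fitted within both groups over all 8 libraries, sgCEBPD 3 included, so it is not a spread between controls alone. Levels were not matched further. All tested genes had a median of 8.46 CPM inside the interval and 38.7 CPM on other chromosomes. Of the 50-base stretches in its longest coding transcript, HLA-B shared 2.54%, HLA-C 6.71% and HLA-E 5.13% with transcripts of other genes. TAPBP, which varied little between controls, shared 5.99%, HLA-F 1.70% and TAP1 1.07%. TAP2, which has no row, shared 35.8%, while B2M and NLRC5 shared 0. Copies under the same gene name, as on alternate haplotypes, were not counted in these shares. Reads that fall on shared stretches cannot be assigned with certainty.

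**Figure D2:**
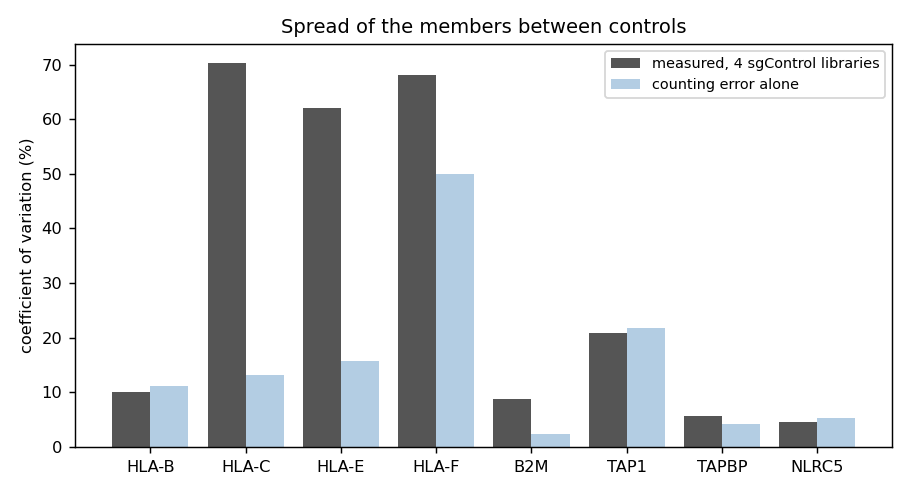
Coefficient of variation in percent between the 4 sgControl libraries for each member, measured (dark bars) and as counting error alone would give (light bars). HLA-C, HLA-E and B2M exceed counting error (70.3% against 13.2%, 62.0% against 15.7% and 8.82% against 2.29%), and HLA-B, TAP1 and NLRC5 do not exceed it.

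No class I or loading gene passed the test between the groups. Of 7 tested members, edgeR's quasi-likelihood test called 0 at an adjusted p under 0.05, with 8 libraries and with 7, where it called 0.0795% and 2.01% of all tested genes. DESeq2 and limma-voom also called 0 in both. At an unadjusted p under 0.05 there was 1 member, B2M, in each comparison, where 11.4% and 15.5% of all tested genes reached that level. With 8 libraries 3 of 7 log2 fold changes (sgCEBPD over sgControl) were positive, with a median of -0.05 beside 0.00 for all genes, and with 7 libraries 4 of 7, with a median of 0.01. In none of the 7 did the groups separate without overlap, which 4.96% of tested genes showed in the higher and 4.62% in the lower direction with 8 libraries (6.89% and 7.5% with 7).

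**Figure D3:**
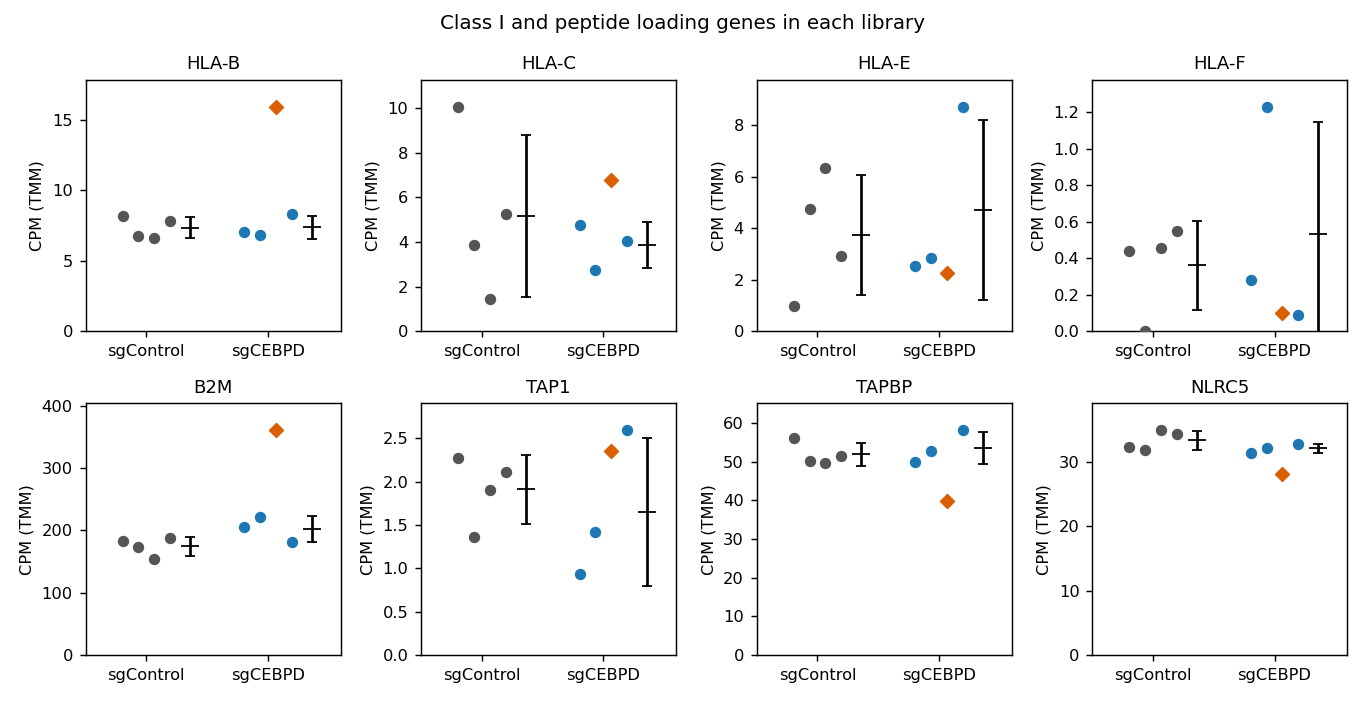
CPM of each member with a row in each library; grey points are sgControl 1 to 4, blue points sgCEBPD 1, 2 and 4, and the orange diamond sgCEBPD 3. Black bars are the mean and SD of the 4 controls and of the 3 blue libraries. The diamond lies above all other libraries in HLA-B (15.9 CPM) and B2M (361 CPM) and below them in TAPBP and NLRC5.

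HLA-B, a classical heavy chain, stood at 8.13, 6.78, 6.63 and 7.80 CPM in sgControl 1 to 4 and at 7.02, 6.81, 15.9 and 8.29 CPM in sgCEBPD 1 to 4. The level in sgCEBPD 3, from 162 counts, was 2.17-fold the control mean, and the other 3 sgCEBPD libraries overlapped the controls. Its log2 fold change was 0.37 (SE 0.28, adjusted p = 0.605 in edgeR) with 8 libraries and 0.01 (SE 0.15, adjusted p = 0.988) without sgCEBPD 3. The difference over 8 libraries thus came from 1 library.

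HLA-C stood at 10.1, 3.88, 1.45 and 5.23 CPM in the controls and at 4.77, 2.74, 6.78 and 4.06 CPM in sgCEBPD 1 to 4, all within the range of the controls. HLA-E, whose molecule shows leader peptides of other heavy chains to natural killer cells, stood at 0.962, 4.75, 6.36 and 2.94 CPM in the controls and at 2.53, 2.84, 2.26 and 8.72 CPM in sgCEBPD 1 to 4, with only sgCEBPD 4 outside that range. Their log2 fold changes were -0.17 (SE 0.52) and 0.13 (SE 0.61) with 8 libraries, and both changed sign when single libraries were left out. Standard errors of this size leave 1.5-fold differences undetectable in these 2 genes. HLA-F, a heavy chain of restricted expression, had 5, 0, 5 and 6 counts in the controls and 3, 13, 1 and 1 in sgCEBPD 1 to 4, too few to be tested. A count of 0, as in sgControl 2, allows up to 0.291 CPM, from 3 counts and for counting error only.

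B2M, the light chain shared by all class I and class I-like molecules that need it, stood at 182, 173, 153 and 189 CPM in the controls and at 205, 222, 361 and 181 CPM in sgCEBPD 1 to 4. Thus 3 of 4 sgCEBPD libraries lay above every control, and sgCEBPD 4 lay among them. The means were 174 ± 15.4 CPM for sgControl and 242 ± 80.9 CPM for sgCEBPD (SD, n = 4 each). In edgeR this gave a log2 fold change of 0.47 with an SE of 0.20 and an adjusted p of 0.436. Without sgCEBPD 3 the mean of the sgCEBPD libraries was 202.5 ± 20.6 CPM (SD, n = 3), and edgeR gave a log2 fold change of 0.22 with an SE of 0.08 and an adjusted p of 0.266. The sign was positive in every alternative, and none passed the threshold. In sgCEBPD 3 B2M was 2.07-fold the control mean and 1.78-fold the mean of the other sgCEBPD libraries.

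TAP1, the transporter subunit with a row, stood at 2.27, 1.36, 1.91 and 2.11 CPM in the controls and at 0.936, 1.42, 2.36 and 2.59 CPM in sgCEBPD 1 to 4. These levels rest on 10 to 30 counts per library, and the groups overlapped (log2 fold change -0.07, SE 0.34, with 8 libraries, and -0.21, SE 0.35, with 7). TAPBP stood at 56.1, 50.2, 49.7 and 51.6 CPM in the controls and at 50.1, 52.8, 39.9 and 58.1 CPM in sgCEBPD 1 to 4. Its lowest level was in sgCEBPD 3, at 0.769-fold the control mean, and the other libraries overlapped (log2 fold change 0.05, SE 0.07, with 7 libraries). NLRC5 stood at 32.4, 31.8, 34.9 and 34.3 CPM in the controls and at 31.4, 32.1, 28.1 and 32.7 CPM in sgCEBPD 1 to 4. It was the steadiest member, with a highest level 1.24-fold its lowest, and it was also lowest in sgCEBPD 3, at 0.843-fold the control mean. Its log2 fold change was -0.10 (SE 0.08, adjusted p = 0.610 in edgeR) with 8 libraries and -0.06 (SE 0.07, adjusted p = 0.769) with 7.

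**Figure D4:**
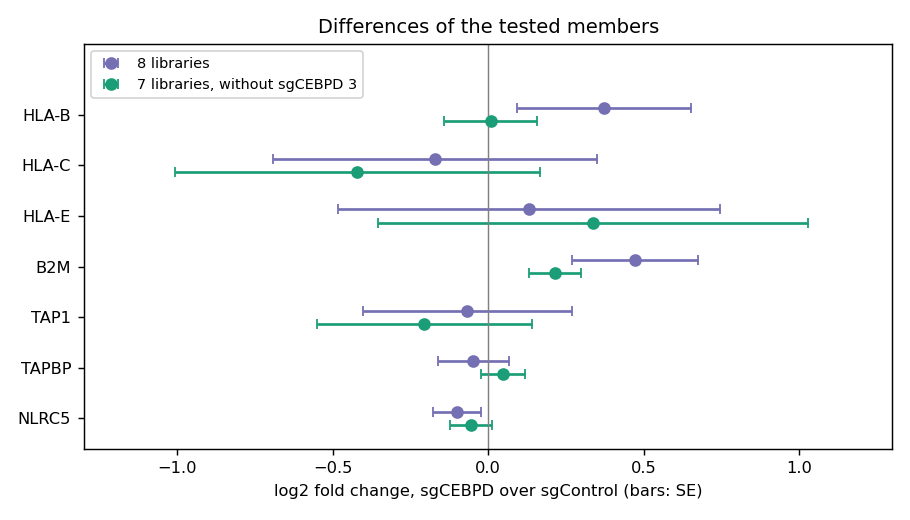
Log2 fold change (sgCEBPD over sgControl, horizontal axis) of the 7 tested members from edgeR with 8 libraries and with 7, without sgCEBPD 3; bars are standard errors. B2M has the largest value with 8 libraries (0.47), HLA-B moves from 0.37 to 0.01 when sgCEBPD 3 is left out, and HLA-C and HLA-E have the widest bars.

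In sgCEBPD 3 the members did not move together. HLA-B and B2M, 2 of 7 tested members, were at least 1.5-fold above the control mean and above all other libraries, where 16.5% of all tested genes were, and 0 were as far below, where 16.6% were. With 1 library there is no test. HLA-B and B2M were 2.17- and 2.07-fold the control mean, while TAPBP and NLRC5 were below all other libraries. Most of the fixed monocyte and macrophage markers were also high in this library, where 6 of 9 tested met the same rule. ITGAM, with the highest ratio, stood at 210.4 CPM against 4.00 to 21.3 elsewhere. Those that did not meet it were CSF1R, LYZ and S100A9. They stood at 538, 80.9 and 1.08 CPM against control means of 432, 124 and 1.23 CPM. The list summed to 1266 CPM against 578 to 628 in the controls and 582 to 778 in the other sgCEBPD libraries. Of 3 tested T and natural killer cell markers, 2 met the same rule there (NCAM1 at 150.9 CPM and NKG7 at 10.9 CPM) and 1 was as far below (CD247 at 1.18 CPM against 2.97 to 4.72 in the controls). Among those not tested with 8 libraries, CD3D stood at 52.7 CPM, CD3G at 0.393 CPM and CD8A at 0.0982 CPM, and the list summed to 217 CPM against 25.8 to 84.1 in the controls and 12.5 to 68.8 in the other sgCEBPD libraries. B cell markers summed to 6.78 CPM against 5.81 to 6.72 in the controls and 3.97 to 4.75 in the other sgCEBPD libraries, and erythroid and megakaryocyte markers to 58.7 CPM against 17.8 to 39.4 and 24.98 to 38.0. Without sgCEBPD 3, where 2.01% of all tested genes were called, 1 of 9 tested monocyte and macrophage markers rose, TYROBP, a signalling adaptor (5.66 against 13.7 CPM, edgeR adjusted p = 0.0269), and the 1 tested B cell marker fell, CD79A, a chain of the B cell receptor (5.42 against 2.05 CPM, edgeR adjusted p = 0.0149). CD247, a T cell receptor chain, at 3.73 against 3.14 CPM, and ITGA2B, a megakaryocyte integrin, at 28.6 against 30.5 CPM did not pass. The part of these markers in the HLA-B and B2M levels was not tested. In bulk RNA a different mix of cells and a different level per cell cannot be told apart.

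By likeness of profile over the 8 libraries, the genes nearest to HLA-B among 10607 at a mean of 5 CPM or more were DNAJC3, NRIP3 and RNF19B, with root mean square differences in log2 CPM, relative to each gene's control mean, of 0.07, 0.09 and 0.09. These share the high level in sgCEBPD 3, such as DNAJC3 at 111.5 CPM against 57.9 CPM in the controls. The nearest to NLRC5 were TPGS2, MFAP3 and HDHD5 (0.03 each). Those nearest to TAP1 were FAM229A, ZDHHC21 and TLR2, at 0.19, 0.19 and 0.21, on counts whose spread between controls was that of counting error.

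Among class I-like genes, CD1D fell. CD1D presents lipids to natural killer T cells and pairs with B2M. It stood at 11.6, 11.2, 11.1 and 15.7 CPM in the controls and at 4.68, 5.39, 2.36 and 3.46 CPM in sgCEBPD 1 to 4, so the highest sgCEBPD library was under the lowest control, and sgCEBPD 3 was the lowest of all. Without sgCEBPD 3 the means were 12.4 ± 2.20 CPM (SD, n = 4) and 4.51 ± 0.98 CPM (SD, n = 3), and edgeR gave a log2 fold change of -1.46 with an SE of 0.19 and an adjusted p of 0.00635. It stayed called when any of the 7 libraries was left out. With 8 libraries the log2 fold change was -1.64 (SE 0.26, adjusted p = 0.0775), past the threshold only in DESeq2 among the alternatives that kept all 8. Of 11 class I-like and stress ligand genes fixed, 7 were tested. CD1D was the 1 called with 7 libraries, where 2.01% of all tested genes were called. With 8 libraries 0 were called, where 0.0795% of all tested genes were. At an unadjusted p under 0.05 there were 2 with 8 libraries, where 11.4% of all tested genes were. With 8 libraries DESeq2 called 1 and limma-voom 0. FCGRT, the neonatal Fc receptor, which also pairs with B2M, stood at 78.2 CPM in the controls and 57.5 CPM in sgCEBPD 1, 2 and 4, but at 197 CPM in sgCEBPD 3. In that library ULBP1, a stress ligand of the receptor NKG2D, stood at 35.3 CPM against 9.56 CPM in the controls. FCGRT and ULBP1 were chosen once their values were known.

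**Figure D5:**
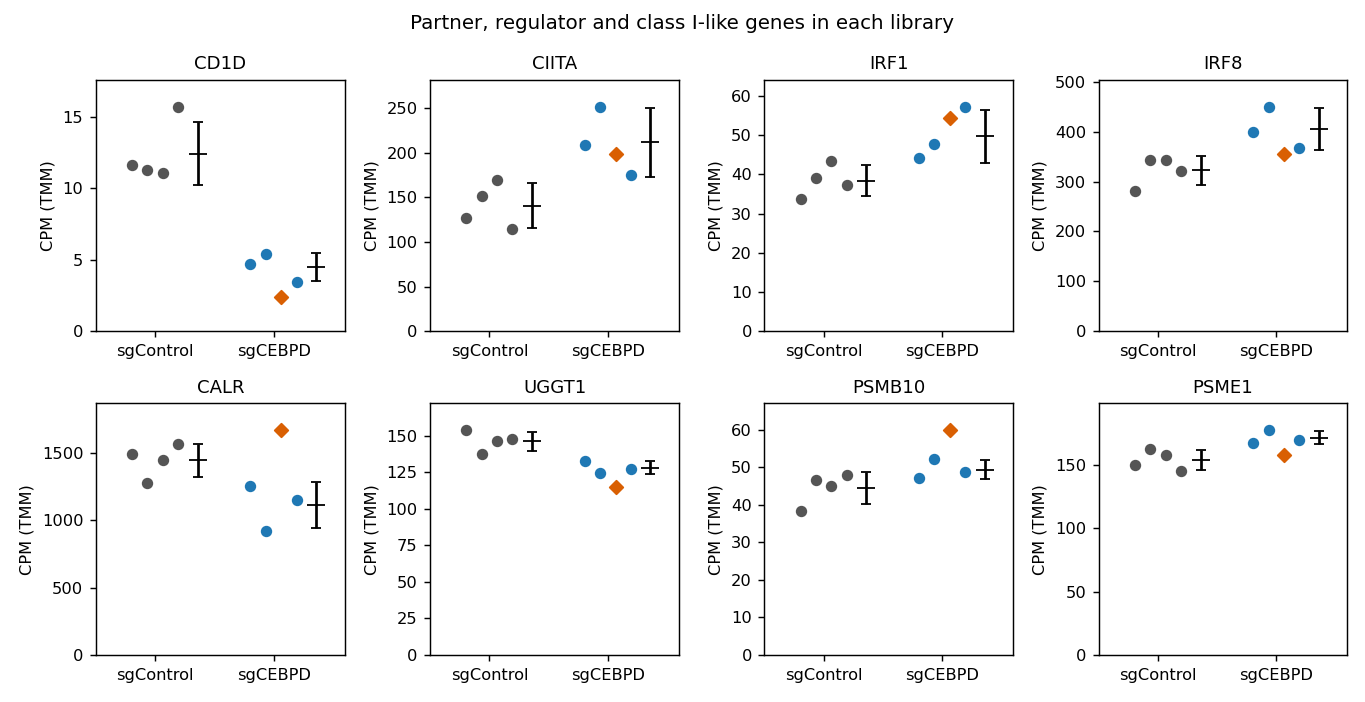
CPM of 8 genes outside the class I group in each library, drawn as in the plot of members by library (grey sgControl, blue sgCEBPD 1, 2 and 4, orange diamond sgCEBPD 3, bars mean and SD without sgCEBPD 3). CD1D lies lower in all sgCEBPD libraries, CIITA, IRF1 and IRF8 lie higher in all of them without passing the test, and CALR is highest in sgCEBPD 3.

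The factors that act on class I promoters were not called either. Of 20 fixed and tested regulators (NLRC5's partners of the RFX and NF-Y complexes, interferon signalling and response factors, NF-kB subunits and CIITA), edgeR called 0 with 8 libraries (5 at an unadjusted p under 0.05, 1 by DESeq2, 0 by limma-voom) and 0 with 7 (6, 2 and 0). Of all tested genes, 11.4% with 8 libraries and 15.5% with 7 reached an unadjusted p under 0.05. DESeq2 called 292 of 13838 and 596 of 14047. With 8 libraries 5 regulators lay higher in all sgCEBPD libraries than in all controls and 1 lower, where 4.96% and 4.62% of all genes did. Their median log2 fold change was 0.09 with 8 libraries and 0.06 with 7. IRF1, which interferon induces and which binds class I promoters, stood at 33.8, 39.2, 43.5 and 37.2 CPM in the controls and at 44.1, 47.8, 54.4 and 57.3 CPM in sgCEBPD 1 to 4 (log2 fold change 0.41 with an SE of 0.11; edgeR's adjusted p was 0.281, and 0.119 without sgCEBPD 3). IRF8, an interferon regulatory factor of monocytes and dendritic cells, had a log2 fold change of 0.29 with an SE of 0.10 (edgeR's adjusted p 0.352), and of 0.33 without sgCEBPD 3 (0.116). CIITA, the class II counterpart of NLRC5, stood at 140.5 CPM in the controls and 208 CPM in sgCEBPD (adjusted p = 0.267 in edgeR, 0.0292 in DESeq2), picked because DESeq2 called it. In sgCEBPD 3 both chains of the interferon gamma receptor were high, IFNGR1 at 290 CPM against 109 CPM and IFNGR2 at 23.4 CPM against 8.78 CPM in the controls. In the other sgCEBPD libraries IFNGR1 lay at 115 to 142 CPM, above the highest control (112 CPM). IFNGR2 lay at 5.36 to 9.45 CPM there. Both were chosen once their values were known.

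The folding and trimming partners showed 0 calls among 9 tested in edgeR with 8 libraries (2 at an unadjusted p under 0.05, 0 by DESeq2 and limma-voom) and 0 with 7 (3 unadjusted, 1 by DESeq2, 0 by limma-voom). Of all tested genes, 11.4% with 8 libraries and 15.5% with 7 reached that unadjusted level, and DESeq2 called 596 of 14047 with 7. The median log2 fold change of the partners was 0.02 with 8 libraries and -0.08 with 7. UGGT1, which checks the folding of glycoproteins, stood at 154, 138, 146 and 148 CPM in the controls and at 133, 125, 115 and 127 CPM in sgCEBPD 1 to 4, below all controls (log2 fold change -0.23 with an SE of 0.07; edgeR's adjusted p was 0.292, and 0.0913 without sgCEBPD 3). CALR (calreticulin), the lectin chaperone of the loading complex, stood at 1443 CPM in the controls, 1109 CPM in sgCEBPD 1, 2 and 4 and 1665 CPM in sgCEBPD 3. Its log2 fold change was -0.38 (SE 0.12, adjusted p = 0.190 in edgeR, 0.00499 in DESeq2) with 7 libraries and -0.21 (SE 0.16) with 8.

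Of 5 immunoproteasome and activator genes, which adapt peptide cutting to class I, 4 were tested and 0 were called by edgeR, DESeq2 or limma-voom in either comparison (1 at an unadjusted p under 0.05 in each). Of all tested genes, 11.4% with 8 libraries and 15.5% with 7 reached that unadjusted level. All 4 log2 fold changes of the immunoproteasome and activator genes were positive in both comparisons. Their median was 0.18 with 8 libraries and 0.15 with 7. PSME1, a subunit of the proteasome activator, had means of 154 and 168 CPM with 8 libraries (log2 fold change 0.13, SE 0.06). PSMB9, which lies in the same chromosome 6 interval, stood at 2.10, 3.97, 4.63 and 3.30 CPM in the controls and at 3.74, 9.74, 6.58 and 4.49 CPM in sgCEBPD 1 to 4. The constitutive counterparts (4 tested) had 0 calls by edgeR, DESeq2 or limma-voom and 0 at an unadjusted p under 0.05. PSMB6 stood at 86.9 against 85.2 CPM and PSME3, an activator of nuclear proteasomes, at 252 against 219 CPM in sgControl against sgCEBPD, with PSME3 at 144 CPM in sgCEBPD 3.

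The ratio of an immunoproteasome subunit to the subunit it replaces does not depend on library scaling. Only PSMB10 over PSMB7 has both genes outside the interval. Its log2 ratio was -1.84, -1.54, -1.43 and -1.38 in the controls and -1.42, -1.42, -1.09 and -1.46 in sgCEBPD 1 to 4, higher only in sgCEBPD 3 than in all controls. The difference of 0.20 gave p = 0.229 in the exact two-sided permutation test over 70 assignments, and 0.12 gave p = 0.486 over 35 assignments without sgCEBPD 3. PSMB9 over PSMB6 differed by 0.81 (exact permutation p = 0.143) and PSMB8 over PSMB5, on 0 to 10 counts of PSMB8 with 0.5 added, by 1.92 (exact permutation p = 0.0857). Adjusted over the 3 ratios, the exact p-values were 0.214, 0.214 and 0.229 for PSMB8, PSMB9 and PSMB10 with 8 libraries, and 0.0286 is the smallest exact p that 4 against 4 libraries can give.

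Among 9 tested genes that lower class I at the surface, edgeR called 0 with 8 libraries (1 at an unadjusted p under 0.05) and 0 with 7 (2 unadjusted), and DESeq2 and limma-voom called 0. Of all tested genes, 11.4% with 8 libraries and 15.5% with 7 reached that unadjusted level. IRF2BP2, a partner of IRF2, stood at 294 CPM in the controls and 356 CPM in sgCEBPD (log2 fold change 0.28 with an SE of 0.10; edgeR's adjusted p was 0.401). MARCHF9, a ubiquitin ligase of membrane proteins, stood at 23.0 and 20.2 CPM.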

How the data were processed

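The authors deposited raw read counts per gene, not normalised, for 8 libraries of polyadenylated RNA. FastQC, HISAT2 and DESeq2 are named with build hg38, per the submitters' processing notes, without roles or versions. The counting tool, strand setting and annotation are not given in the sources used here. Library totals (10217751 to 11521209 counts) set the precision of low counts. Columns were matched to libraries by library name.

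Tests used edgeR 4.0.16 in R 4.3.3: filterByExpr removed low genes, TMM scaled the libraries, and genes were tested by a robust quasi-likelihood fit with the group as the only term (13838 genes with 8 libraries, 14047 with 7). P-values were adjusted by Benjamini-Hochberg over all genes, with a threshold of 0.05. Standard errors were derived from the F statistic (the size of the log2 fold change over root F). DESeq2 1.42.0, limma 3.58.1 (voom), other scalings and filters, a block on guide number, each library left out and repeated symbols summed were alternatives. The functions were tested on simulated data. The members and lists were chosen with earlier results of these data known. Text names all members; called list genes, or else the 2 with the lowest p without sgCEBPD 3; the genes of the subunit ratios; and the 3 nearest profiles. Positions and lengths came from GENCODE release 29, which shares the build; the lists' genes were matched by symbol.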

Additional observations from a re-analysis of the deposited data

Results flagged for a closer look

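In 4 of 22 groups of 4 values, 1 library was well separated from the rest. About 1.1 would be expected if the groups were independent and normally spread, which was not tested. HLA-F rests on few counts and sgCEBPD 3 stood apart in many genes, so no comparison with chance is drawn. HLA-B in sgCEBPD 3 stood at 15.9 CPM, against 6.81 to 8.29 CPM in the other sgCEBPD libraries. HLA-E in sgCEBPD 4 stood at 8.72 CPM against 2.26 to 2.84 CPM. HLA-F in sgCEBPD 2 stood at 1.23 CPM, from 13 counts, against 0.0864 to 0.281 CPM. The log2 ratio of PSMB10 to PSMB7 in sgCEBPD 3 was -1.09 against -1.46 to -1.42.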

How the results depend on the processing

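The count of 0 called members held under every alternative in both comparisons. B2M stayed positive and uncalled throughout, with log2 fold changes of 0.22 to 0.59 with 8 libraries and 0.15 to 0.29 with 7 when single libraries were left out. NLRC5 stayed negative and uncalled throughout, and HLA-B stayed positive and uncalled with 8 libraries. The other signs were not stable when single libraries were left out. For HLA-C, log2 fold changes with 8 and with 7 libraries ran from -0.48 to 0.38 and from -0.73 to 0.13. For HLA-E they ran from -0.56 to 0.51 and from -0.48 to 0.72. For TAP1 they ran from -0.29 to 0.15 and from -0.70 to 0.0750. For TAPBP they ran from -0.13 to 0.0484 and from -0.0142 to 0.10. HLA-B with 7 libraries ran from -0.0866 to 0.0649. HLA-C with 8 libraries was 0.0532 in limma-voom, and HLA-B with 7 was -0.0027 with library totals. With library totals, the log2 ratios of sgCEBPD 3 to the control mean were -0.46 for TAPBP and -0.33 for NLRC5, against -0.38 and -0.25. Over all genes, 11 calls with 8 libraries became 292 in DESeq2, 20 with no filter, 1 at an adjusted p under 0.01, and 0 to 283 without single libraries. The 283 calls with 7 libraries became 596 in DESeq2, 40 at an adjusted p under 0.01, and 66 to 312 without single libraries. DESeq2 called 1 regulator (CIITA) and 1 class I-like gene (CD1D) with 8 libraries, and 2 regulators (IRF8 and CIITA) and 1 partner (CALR) with 7. Class I-like calls with 8 libraries were 0 to 1 without single libraries, with CD1D the 1 without sgCEBPD 3. The PSMB8 ratio differed by 1.3015 to 2.48 without single libraries, and without sgControl 2 it reached the exact permutation p of 0.0286. The causes were not tested.

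Deviations of same-numbered libraries correlated between -0.08 and 0.06 across genes, and 2 of 8 libraries correlated best with their own number. The library names also carry the same numbers in both groups, and no label says whether same-numbered libraries were handled together. With so few numbers, and with sgCEBPD 3 standing apart, these correlations cannot decide whether the libraries are paired. With a replicate block on guide number, 1 of 13838 genes was called with 8 libraries and 352 of 14047 with 7. The 352 held 1 partner (CALR), 3 regulators (IRF1, IRF8 and CIITA) and 2 class I-like genes (CD1D and FCGRT). The log2 fold change of HLA-B with 7 libraries was then -0.0392. Depth limits HLA-F and TAP1 most, with at most 13 and 30 counts per library.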
